A study of Homo sapiens with 4 samples.

Results

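The Ikaros family comprises 5 zinc finger transcription factor genes, IKZF1 (Ikaros), IKZF2 (Helios), IKZF3 (Aiolos), IKZF4 (Eos) and IKZF5 (Pegasus), and their open chromatin was followed in Kasumi-1 cells after SETD8 knockout. Members were chosen by gene symbol, as every row of the first deposited peak table whose nearest gene is one of the 5, together with the overlapping rows of the second table. The rule returned 7 of 20556 peaks in the first table, 6 assigned to IKZF1 and 1 to IKZF2, and 2 of 13577 peaks in the second table, both of IKZF1. No row of the tables used here carried the symbol of IKZF3, IKZF4 or IKZF5, so peaks at or beside these genes that the annotation gives to a neighbour are described separately.

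Kasumi-1 is an acute myeloid leukaemia line carrying t(8;21), the translocation that fuses RUNX1 to RUNX1T1. The SETD8 knockout group was made with CRISPR/Cas9 against SETD8, now named KMT5A, which monomethylates histone H4 at the residue H4K20. The control group is labelled sgNT and wild type, and both groups were grown in the same medium. Each group has 2 libraries of ATAC-seq, an assay in which a transposase inserts adapters into open chromatin. Whether libraries of a group come from separate cultures, clones or guides is not stated, so differences between them may be technical. The first table names no library, and the second compares the knockout and control libraries of replicate 2. Whether the tables share libraries is therefore not known.

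Ikaros proteins bind DNA through N-terminal zinc fingers and pair with each other through C-terminal zinc fingers. IKZF1 is needed for lymphoid development and is also active in blood progenitors and in part of the myeloid lineage. IKZF2 and IKZF4 are best known from regulatory T cells, IKZF3 from B cells, and IKZF5 is expressed broadly. The family recruits the NuRD complex and other corepressors to its targets. IKZF1 and IKZF3 are degraded through the CRL4-cereblon ubiquitin ligase in the presence of lenalidomide.

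Start-site sequences are shown first, because only some of the family's start sites lie in an open peak. Each is the 250 bases before a RefSeq start on GRCh38.p14, written 5′ to 3′ along the gene. Capitals mark matches on either strand to TGTGGT (the RUNX core), TGGGAA (an Ikaros-type core), AGGAAG (an ETS-type core) and GGGCGG (the GC box). None of the marked matches overlap. The IKZF1 window (chr7:50304466-50304715, plus strand) and the IKZF5 window (chr10:123008796-123009045, minus strand) lie wholly inside a peak in both tables. The IKZF2 window (chr2:213152457-213152706, minus strand) lies outside any peak, beyond the edge of the IKZF2 promoter peak.
IKZF1: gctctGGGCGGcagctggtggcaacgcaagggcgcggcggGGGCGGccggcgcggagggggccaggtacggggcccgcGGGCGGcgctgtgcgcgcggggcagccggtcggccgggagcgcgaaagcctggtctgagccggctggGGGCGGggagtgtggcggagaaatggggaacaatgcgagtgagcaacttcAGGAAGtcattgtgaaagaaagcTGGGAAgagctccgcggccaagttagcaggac
IKZF2: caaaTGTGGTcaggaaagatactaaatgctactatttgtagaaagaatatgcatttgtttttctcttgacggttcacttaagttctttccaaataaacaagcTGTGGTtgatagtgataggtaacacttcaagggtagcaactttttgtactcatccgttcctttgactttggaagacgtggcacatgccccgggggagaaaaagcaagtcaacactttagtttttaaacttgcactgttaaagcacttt
IKZF5: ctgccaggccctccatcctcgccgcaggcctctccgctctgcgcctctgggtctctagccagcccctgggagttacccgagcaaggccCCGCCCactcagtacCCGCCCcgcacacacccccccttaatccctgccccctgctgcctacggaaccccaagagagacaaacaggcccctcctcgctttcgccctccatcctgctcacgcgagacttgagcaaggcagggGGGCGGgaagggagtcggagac

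The open IKZF1 window was GC-rich, with 71.2% G or C, against a median of 58.0% over 34788 distinct windows of all genes. It held 4 GC boxes, 1 Ikaros-type core and 1 ETS-type core, and 0 matches to the RUNX core. Of the IKZF1 windows outside any peak, not shown, chr7:50308450-50308699 held 1 RUNX core and chr7:50318798-50319047 held 0. The IKZF5 window had 68.0% G or C and 3 GC boxes. A further IKZF5 window, chr10:123008688-123008937, also lay inside the peak and held 1 RUNX core beside 1 GC box. The IKZF2 window shown, outside the peak, had 38.0% G or C and 2 RUNX cores. The other IKZF2 window, chr2:213150438-213150687, also outside the peak, had 50.0% G or C and 0 RUNX cores. Of all windows, 42.6% held a GC box, 28.7% AGGAAG, 20.8% TGGGAA and 11% TGTGGT. Searches for TGCGGT and CCAAT found 0 matches in the 3 windows shown, against 5.83% and 32.0% of all windows. These matches describe letters only and show no binding.

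Whole-series facts set the scale for the family. The median log2 fold change of all peaks was -0.87 in the first of the authors' deposited tables and -1.23 in the second, so most peaks had lower normalised levels in the knockout. The sources used here give no account of the scaling between libraries, so a shared loss of accessibility and a difference in scaling cannot be told apart. Values relative to the table median are therefore given beside the deposited ones. No peak passed an adjusted p of 0.05 (percent called 0.0 in both tables), and 1.6% of the first table and 0.14% of the second had an unadjusted p under 0.05. The second table held about 2091322 knockout and 5345251 control reads in peaks. Relative to its table's median, a peak found in both tables differed between them with a standard deviation of 0.46 on the log2 scale over 11203 pairs. The KMT5A promoter had fold changes of -0.82 and -1.45 in the authors' first and second deposited tables, 0.05 above and 0.22 below the medians (-0.22), and a promoter peak does not check an edit in coding sequence. Promoter peaks were present for 4 of 6 progenitor and myeloid markers (CD34, KIT, SPI1, CEBPA, but not MPO or CD33). Of markers of other cells, 1 of 3 T cell genes (CD3D), 1 of 3 B cell genes (CD79A), 0 of 2 erythroid, 0 of 2 liver and 1 of 2 epithelial genes (EPCAM) had one. Of all protein-coding genes 44.0% had a promoter peak in the first table.

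IKZF1 had an open promoter and 5 further peaks, and IKZF2 an open promoter only. Of the 7 peaks, 6 had a lower normalised level in the knockout and 1, a weak distal peak of IKZF1, a higher one. Of all first-table peaks 92.3% had a fold change below 0 and 7.45% one above 0. The median fold change of the 7 peaks was -1.1 in the first of the authors' deposited tables, against -0.87 for all peaks. This is -0.23 relative to the table median. Over the 6 IKZF1 peaks the median was 0.01 when each was set against the 17 other peaks of its 5 Mb bin, 5 of them IKZF1 peaks themselves, and also 0.01 against the 12 that are not. Of the 7, 4 were lower by at least 1 on the log2 scale, where 38.9% of all first-table peaks were. With a threshold of 1.5 the count was 1 (8.51% of all peaks), and relative to the table median 0 peaks were lower by 1 (1.98% of all) and 1 was higher by 1 (5.52% of all). In the second table both IKZF1 peaks had a fold change below 0 (98.6% of all peaks), and 1 was lower by at least 1 (76.1%). There 0 were lower by 1.5 (19.5%), or by 1 relative to the median (0.206%). The authors' test called 0 of the 7 at an adjusted p of 0.05 (0.0% of all first-table peaks). It called 0 at an unadjusted p of 0.05 (1.6% of all), and the smallest unadjusted p of the 7 was 0.134.

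**Figure D1:**
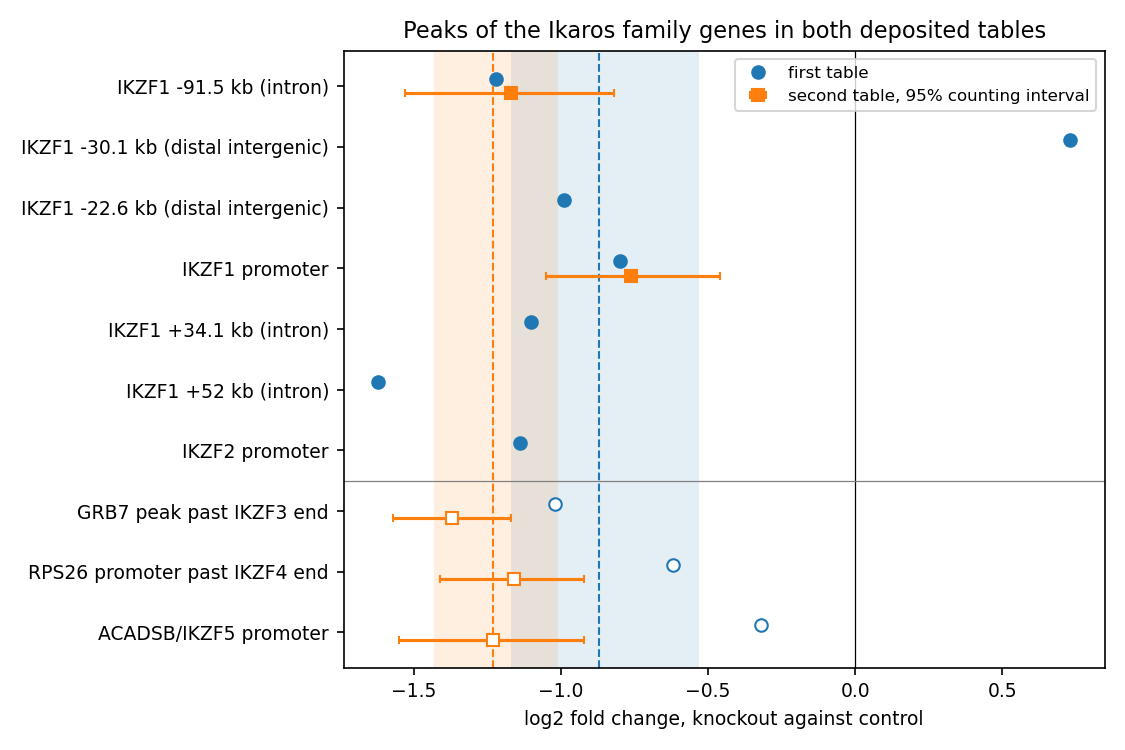
Log2 fold change of each peak (horizontal axis) of the Ikaros family, filled symbols, and of peaks at or beside IKZF3, IKZF4 and IKZF5 that are assigned to other genes, open symbols. Circles are the first table, squares the second with 95% counting intervals, dashed lines the table medians of -0.87 and -1.23 and shaded bands the quartiles of all peaks. Only the IKZF1 peak 30.1 kb before the start lies above 0.

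The IKZF1 promoter peak stood near the median of the first table and above most peaks of the second. It spans positions 50304088 to 50305102 of chromosome 7 in hg38 and covers the first of the 3 RefSeq start windows of the gene. Distances at IKZF1 are counted from the start site of that window, 50304716, here called the first RefSeq start. The gene body extends from 50303455, outside the peak in both tables, to 50405101. Its mean level in the first table was 170.1 normalised reads per library. The fold change was -0.80 in the first of the authors' deposited tables, with p = 0.458 and an adjusted p of 0.731, or 0.07 above the table median. In the second table the matching peak, 50303911 to 50305218, held 150 reads in the knockout library and 275 in the control library, or 252.5 after scaling.

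The control library was thus the higher of the pair, as at most peaks. The fold change was -0.76 in the second of the authors' deposited tables, with an adjusted p of 0.619. Its exact 95% interval for counting error alone was -1.05 to -0.46, which lies above the table median of -1.23. The same was true of 16.7% of all second-table peaks, and there is no second library per group to check it. The excess over the median was 0.47, and the quartiles of all second-table peaks were -1.43 and -1.01. The standard deviation between tables (0.46) holds noise of both tables, which may share libraries, and does not measure spread within 1 table. The promoter stood at percentile 55.6 of all first-table peaks and 90.0 of all second-table peaks. Among first-table peaks of similar level it stood at percentile 64.0.

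A second site found in both tables lies 91.5 kb before the IKZF1 start, at 50212791 to 50213646, in an intron of a transcript to which the annotation gives no gene identifier. It was the strongest of the IKZF1 peaks in the first table, with a mean level of 183.5 normalised reads. Its fold change was -1.22 in the first of the authors' deposited tables, -0.35 relative to the median, with p = 0.261. In the second table, where the peak spans 50212692 to 50213840, it held 97 knockout reads and 238 control reads, or 218.3 after scaling. The fold change was -1.17 in the second of the authors' deposited tables (counting interval -1.53 to -0.82), 0.06 above the median.

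Both tables placed the promoter above this upstream site, by 0.42 in the first and by 0.41 in the second. The tables may share libraries, so this likeness is not a replication. The 95% counting interval of the second-table difference, -0.04 to 0.86, includes 0, so the order of these 2 sites was not resolved at this depth. The first-table difference has no error of its own, because the depth of its libraries was not analysed here.

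The other 4 IKZF1 peaks were found in the first table only. The peak with the lowest fold change of the family lies 52.0 kb into the gene, in an intron, at 50356354 to 50357055. With a mean level of 142.0 normalised reads it equals the median first-table peak in strength, and its fold change was -1.62 in the first of the authors' deposited tables (p = 0.134, adjusted p = 0.731). This is -0.75 relative to the median, at percentile 5.43 of all peaks and 8.82 of peaks of similar level. A weaker intronic peak 34.1 kb into the gene, at 50338627 to 50338964, had a mean level of 53.45 normalised reads and a fold change of -1.10 in the first of the authors' deposited tables, with p = 0.178. Peaks of that level had a median of -0.56, and this one stood at their percentile 19.6.

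Of the intergenic sites before the gene, the peak at 50281682 to 50282501, 22.6 kb from the start, had a mean level of 145.0 normalised reads. Its fold change was -0.99 in the first of the authors' deposited tables (p = 0.352), near the median of -0.95 for peaks of similar level. The peak at 50274450 to 50274771, 30.1 kb from the start, was the weakest of the family, at 29.65 normalised reads. It alone had a higher level in the knockout, with a fold change of 0.73 in the first of the authors' deposited tables, p = 0.273 and an adjusted p of 0.731. Weak peaks spread widely in that table: those of similar level had a median of -0.15 and a 5th to 95th percentile range of -1.28 to 0.98, with this peak at percentile 91.3. The upstream peaks of IKZF1 thus included both its strongest and its weakest site of the first table. In the second table the promoter was stronger than the upstream site, at mean levels of 7.66 and 7.3 on the log2 scale.

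**Figure D2:**
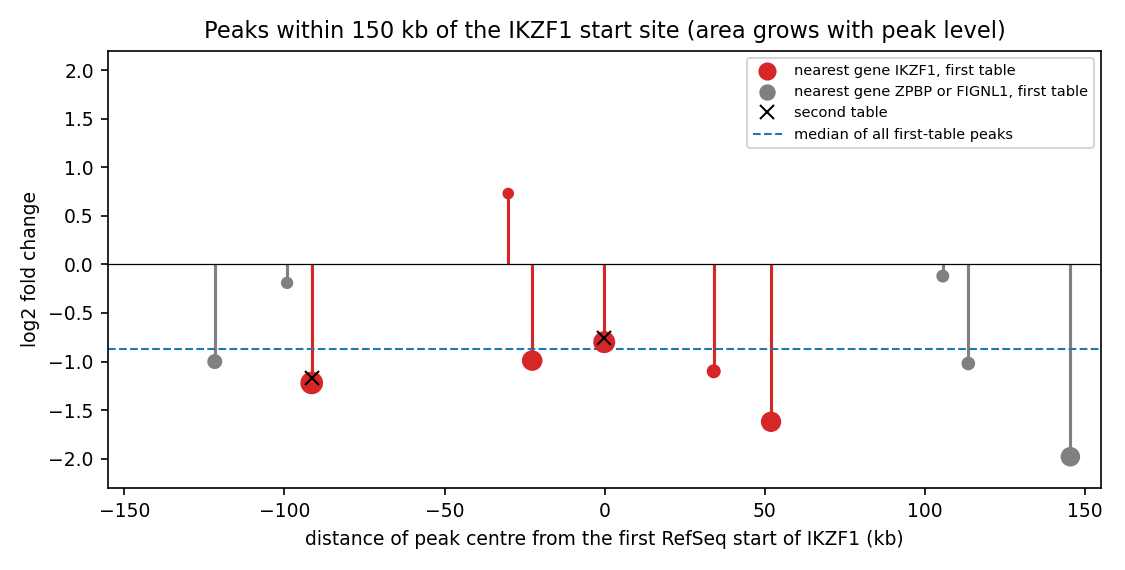
Log2 fold change (vertical axis) of the 11 first-table peaks within 150 kb of the first RefSeq start of IKZF1, against the distance of their centre in kb. Red marks the 6 peaks assigned to IKZF1, grey the 5 assigned to ZPBP or FIGNL1, circle area grows with peak level, crosses are the second table and the dashed line is the first-table median. Of the 11, 10 lie below 0.

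Within 150 kb of the IKZF1 start the first table held 11 peaks with a median fold change of -1.0, and the second table held 2, both already described. Overlap between tables depended on class and strength. Of all first-table peaks 54.5% overlapped a second-table peak by at least 1 bp, 77.0% of promoters, 21.4% of introns and 24.7% of distal intergenic sites. Among peaks of similar level that are not promoters, the share was 36.6% for the intronic site at 52.0 kb, 38.2% for the site at 22.6 kb, 8.43% for that at 34.1 kb and 2.33% for that at 30.1 kb. The absence of these 4 from the second table is therefore shared by most such peaks.

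IKZF2, the Helios gene, had a single peak over an annotated start, at 213151427 to 213152221 on chromosome 2, where the gene runs on the minus strand from 213152456 down to 212999698. The peak centre lies 632 bp inside the gene from its first RefSeq start, and neither of the 2 RefSeq windows of IKZF2 falls in it. Its mean level was 158.7 normalised reads. The fold change was -1.14 in the first of the authors' deposited tables, with p = 0.289 and an adjusted p of 0.731. Relative to the table median it was -0.27, at percentile 35.2 of peaks of similar level. No second-table peak overlapped it, whereas 79.2% of promoters of similar level had one. Its 5 Mb bin held only 4 other peaks, too few for a regional value.

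Between the promoters of IKZF1 and IKZF2, the mean levels in the first table were close, at 7.41 and 7.31 on the log2 scale. These levels are per peak and not per length, and the peaks are 1015 and 795 bp wide. The fold changes of -0.80 and -1.14 in the first of the authors' deposited tables both lay between the quartiles of all its peaks, -1.17 and -0.53.

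**Figure D3:**
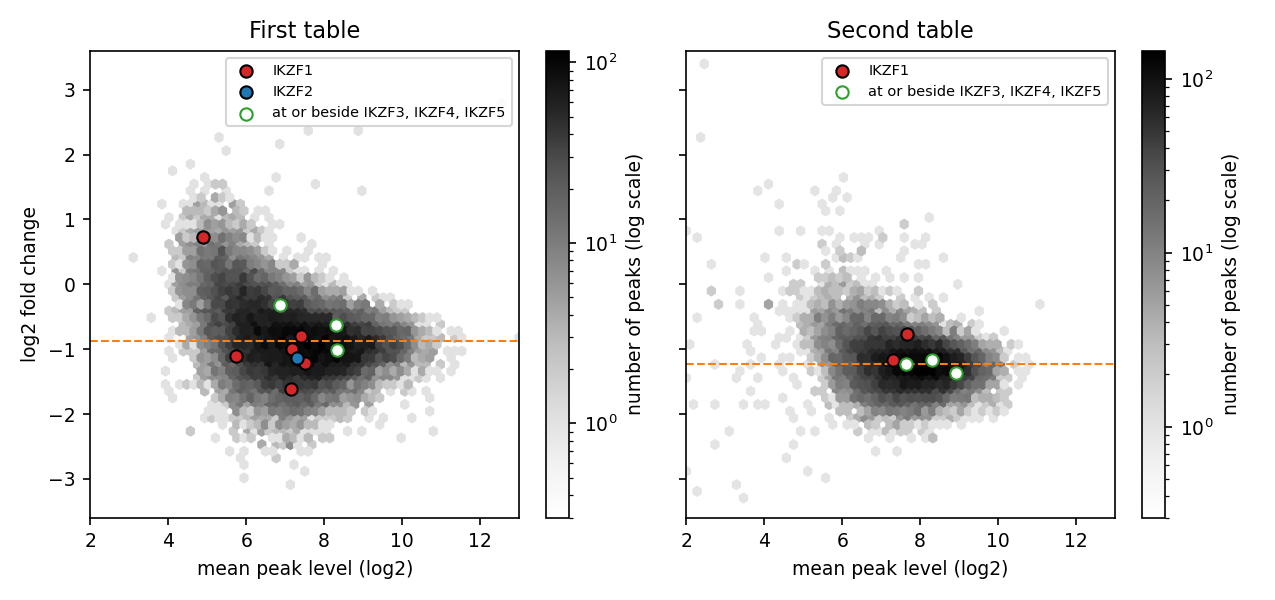
Log2 fold change (vertical axis) against mean peak level on the log2 scale (horizontal axis) for all peaks of the first table (left) and the second (right), with grey for the number of peaks on a log scale and dashed lines for the table medians. Levels from 2 to 13 are drawn, which leaves out 11 peaks of the first table and 93 of the second. The family's peaks lie within the cloud of all peaks, and the IKZF1 peak at 0.73 lies where weak peaks spread most.

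IKZF5, the Pegasus gene, shares its start region with ACADSB, which encodes a mitochondrial acyl-CoA dehydrogenase and to which the annotation gives the peak. Both RefSeq windows of IKZF5 lie inside this peak, at 123008513 to 123009227 on chromosome 10. The fold change was -0.32 in the first of the authors' deposited tables, with p = 0.75 and an adjusted p of 0.841, at a mean level of 116.2 normalised reads. This was 0.55 above the median. Its second-table counterpart, 123008316 to 123009297, held 118 knockout reads and 301 control reads, or 276.3 after scaling. The fold change there was -1.23 in the second of the authors' deposited tables (counting interval -1.55 to -0.92), equal to the table median (0.00 relative to it). The tables thus placed the shared ACADSB and IKZF5 promoter differently, above the median in one and at it in the other.

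No peak of either table fell in the body of IKZF3 or IKZF4. For IKZF4, the Eos gene, the nearest peak to its first start window lay 24378 bp away in the first table and 9488 bp away in the second. The closest peaks annotated as flanking these genes lay past their far ends. An intergenic peak assigned to GRB7, an adaptor protein gene, at 39753870 to 39754715 on chromosome 17, lies 3000 bp beyond the end of IKZF3, the Aiolos gene. It had fold changes of -1.02 and -1.37 in the authors' first and second deposited tables, or -0.15 and -0.14 relative to the medians. Other peaks of its 5 Mb bin had medians of -1.09 and -1.58, so the peak stood 0.07 and 0.21 above its surroundings.

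In the second table that peak held 271 knockout reads and 762 control reads, or 699.4 after scaling, with a counting interval of -1.57 to -1.17 on its fold change. The RPS26 promoter, of a ribosomal protein gene, at 56041577 to 56042355 on chromosome 12, begins 3142 bp past the end of IKZF4. It had fold changes of -0.62 and -1.16 in the authors' first and second deposited tables, 0.25 and 0.07 above the medians, and held 195 knockout and 476 control reads (436.5 after scaling) in the second. Whether any of these peaks acts on the family gene beside it was not tested.

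On each side of a member, the nearest promoter peak of another gene lying wholly outside it was compared, at whatever distance it lay. Next to IKZF1, the FIGNL1 promoter, of an AAA ATPase gene in DNA repair, had a fold change of -1.98 in the first of the authors' deposited tables with p = 0.0664, lower than any IKZF1 peak. On its other side the nearest gene with a promoter peak was UPP1, of uridine phosphorylase, at -1.21 in the first of the authors' deposited tables. The UPP1 peak starts at 48088438 on chromosome 7, more than a megabase from IKZF1. Neither the FIGNL1 nor the UPP1 peak overlapped one of the second table. Around IKZF2 the nearest were those of LANCL1 and SNHG31, with peaks starting at 210476432 and 214808964, each more than a megabase from the gene. These 2 promoters had -1.61 and -1.22 in the first of the authors' deposited tables, and -1.36 and -1.21 in the second. Beside IKZF3, those of MIEN1 and ORMDL3 had -1.12 and -0.82 in the first of the authors' deposited tables, and -1.58 and -1.59 in the second.

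Partner genes of the family were taken from a list of 25, covering NuRD, corepressors, a remodeller, the cereblon ligase and casein kinase 2, which phosphorylates Ikaros. Of these, 21 had a promoter peak in the first table, where 44.0% of all protein-coding genes had one. A fold change below 0 was found for 20 of the 21 (97.4% of all genes with such a peak). The median of the 21 was -0.77, against -0.93 for the strongest promoter of each of 10187 genes. A fold change of -1 or lower was found for 4 of 21, against 43.3% of all genes. Of the 21, 17 overlapped a second-table peak, as did 8295 of the 10187 strongest promoters. Genes without a first-table promoter peak were not looked up in the second table. All 17 were lower by at least 1 (83.4% of the 8295), with a median of -1.25 against -1.26. The authors' test called 0 partner promoters in either table, also at an unadjusted p of 0.05. At an adjusted p of 0.05 it called no peak of either table. An unadjusted p under 0.05 was found for 71 of the 10187 strongest promoters in the first table, and for 0.14% of all second-table peaks.

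The 9 NuRD genes measured had a median of -0.73 and a range of -1.07 to -0.06 in the first table. CHD4, the main NuRD remodelling ATPase, was the highest of them, at -0.06 in the first of the authors' deposited tables with a mean level of 144 normalised reads. Among all partners, SIN3B, a corepressor scaffold, was the highest at 0.08. Its peak was weak, with a mean level of 59.3 normalised reads against a median of 142.0 for all first-table peaks. CTBP1, another corepressor, and DDB1, the adaptor of the cereblon ligase, were the lowest at -1.51 and -1.31 in the first of the authors' deposited tables. Of these 4 promoters only DDB1 overlapped a second-table peak, at -1.36 in the second of the authors' deposited tables. CRBN, the substrate receptor of that ligase, had -0.53 and -1.25 in the authors' first and second deposited tables, 0.34 above and 0.02 below the medians (-0.02).

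The lowest partner promoters of the second table were SIN3A and MBD2, a methyl-CpG binding protein gene, at -1.68 and -1.61 in the second of the authors' deposited tables. SIN3A held 357 knockout reads against 1140 scaled control reads, with a counting interval of -1.85 to -1.51 that lies below the table median. The interval lay below the median for 4 of the 17 (SIN3A, MBD2, GATAD2B and CSNK2B) and above it for 1 (MTA2), against 16.7% of all second-table peaks in each direction. The highest were SMARCA4, the BRG1 remodelling ATPase, at -1.0, and CSNK2A2, a catalytic subunit of casein kinase 2, at -1.01 in the second of the authors' deposited tables. Their counting intervals, -1.23 to -0.78 and -1.43 to -0.60, reach or include the table median.

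**Figure D4:**
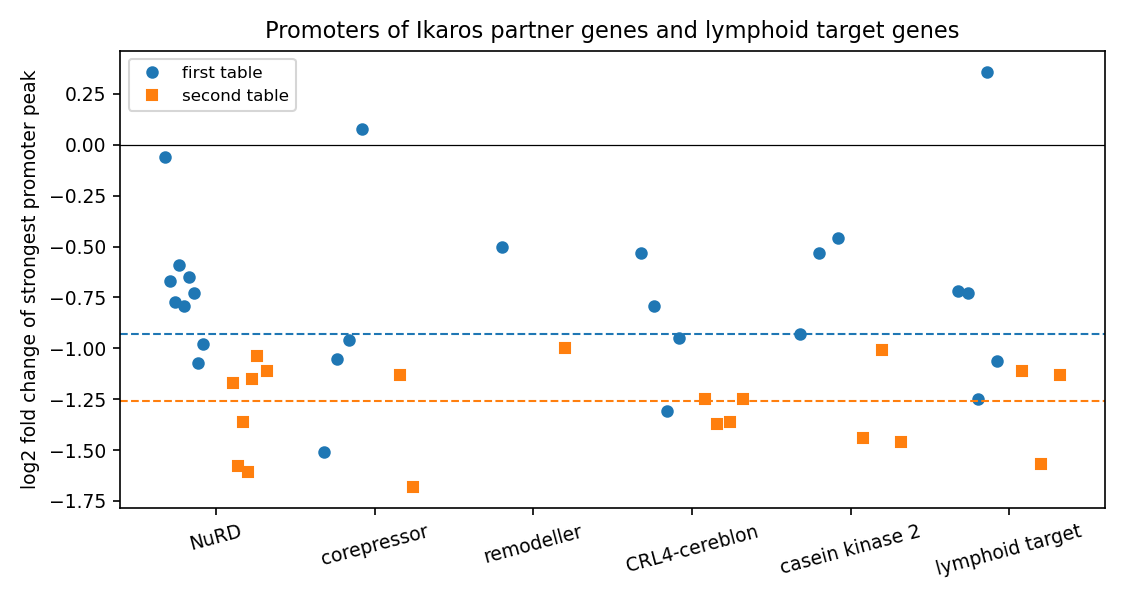
Log2 fold change (vertical axis) of the strongest promoter peak of each Ikaros partner gene, by complex, and of each lymphoid target gene. Circles are the first table, squares the second and dashed lines the medians over the strongest promoter of each gene, -0.93 and -1.26. SIN3B (0.08) and IL7R (0.36) are the only points above 0.

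Of 12 genes listed as Ikaros targets in lymphoid cells, 5 had a promoter peak in the first table, where 44.0% of all protein-coding genes had one. Of the 5, 3 overlapped a second-table peak. The 5 were CD8A, a T cell coreceptor, IL7R, the interleukin 7 receptor, CD79A, of the B cell receptor, BCL6, a germinal centre repressor, and MYC. Their median was -0.73, against -0.93 for all genes. CD8A and MYC were the lowest, at -1.25 and -1.06, and IL7R and BCL6 the highest, at 0.36 and -0.72 in the first of the authors' deposited tables. The IL7R peak was weak, with a mean level of 87.4 normalised reads. CD8A had -1.57 from 141 knockout and 419 scaled control reads, MYC -1.13 and BCL6 -1.11 in the second of the authors' deposited tables. No promoter of this list was called by the authors' test in either table, where no peak at all was called. An unadjusted p under 0.05 was found for 0 of them, and for 71 of the 10187 strongest promoters in the first table and 0.14% of all second-table peaks.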

How the data were processed

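Chromatin accessibility was measured in 4 libraries, 2 per group, and groups were taken from the sample titles. Per the submitters' processing notes, Bowtie2, MACS2 2.1.2, ChIPseeker, cutadapt, deepTools and SAMtools were used on hg38. Settings, read shifting, pooling and scaling are not given in the sources used here. From the authors come 2 deposited peak tables with log2 levels, log2 fold changes, p-values and adjusted p-values. Per the file headers, the second compares the libraries of replicate 2. The first has numbered columns, identified by their order and by the name of the table. Its 2 columns of per-library levels were not used, because no library is named.

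Coordinates are as deposited. Gene identifiers matched RefSeq of GRCh38.p14 for 20542 peaks, and 757 symbols were updated. Peaks were joined by an overlap of at least 1 bp. Levels of the second table corresponded to whole reads for the knockout (100% of 361 values under 5, within 0.005 on the log2 scale) and to reads times 0.918 for the control (100% of 170). Reads of stronger peaks are approximate, since levels carry 2 decimals. Exact (Clopper-Pearson) 95% intervals cover counting error only, and reads are not independent molecules. Similar level means within 0.25 on the log2 scale. Promoter means within 3 kb of a start, as the annotation names it, and the strongest promoter peak of each gene was used. The level trend was taken as the median of 20 bins, and the regional value as the median of other peaks in the 5 Mb bin, where it held at least 10. The level trend, the regional value and the overlap join were tested on simulated data. No count test across groups could be run on these tables, and the authors' adjusted p-values are quoted in its place.

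The members, lists and tests were chosen with earlier results of these data known. The text names every peak of the 5 genes and, on each side, the nearest gene with a promoter peak wholly outside the member. Of each list it names the 2 lowest and 2 highest promoters. CRBN and CD79A, and GATAD2B, CSNK2B and MTA2 for their counting intervals, were named after their values were seen. Python 3.11.15 with numpy 2.4.6, pandas 2.3.3, scipy 1.17.1 and matplotlib 3.10.9 was used.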

Additional observations from a re-analysis of the deposited data

How the results depend on the processing

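No paired analysis was possible because the first deposited table names no library, so its values cannot be tied to a replicate number, and for the same reason no library could be left out. The first-table median of the 7 family peaks, -1.1, became -0.23 when centred on the table median and -0.215 with the level trend removed. With the regional value removed it was 0.01 over the 6 IKZF1 peaks, since IKZF2 has no regional value, and 0.01 also when family peaks were left out of the regional median, an alternative chosen after the data were seen. It was -1.14 for peaks at or above the median level and -0.97 for promoters only, -1.14 without IKZF1, -1.045 without IKZF2 and -1.12 without the weak distal IKZF1 peak, a choice made after the data were seen. The second-table median of 2 peaks, -0.965, became 0.265 when centred, 0.28 with the level trend removed and -0.76 for the promoter only, and was the same with an overlap of 50% of both peaks. It had no regional value, with 1 other peak in the bin, and both peaks were below the median level. The count of first-table peaks lower by at least 1, 4, became 1 at a threshold of 1.5, 0 relative to the table median and 3 with the level filter. The second-table count, 1, became 0 under both and 0 with the level filter. Centred, the partner list had medians of 0.1 and -0.02, and the lymphoid list 0.14 and 0.1, in the first and second tables. Counts of peaks called by the authors were 0 under each threshold tried. The second table's knockout library had fewer reads in peaks than its control, and reads outside peaks were not counted. The depth of the first table's libraries was not analysed here.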

Other observations

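The IKZF1 peaks were spread more widely than those of most genes with as many peaks, a pattern looked for after the values were seen. IKZF1 had 6 peaks in the first table, where 1.17% of the 13238 genes with a peak had at least as many. Their fold changes spanned 2.35 on the log2 scale, against a median span of 1.23 over the 67 genes with 6 peaks, and 4 of these genes, IKZF1 included, had a span at least as wide. The span was 0.82 without the weak peak 30.1 kb before the start.

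Of the other loci, the promoters beside IKZF4 were those of RAB5B and RPS26, at -0.86 and -0.62 per the first of the authors' deposited tables and -1.63 and -1.16 per the second. Beyond the shared ACADSB promoter, which overlaps IKZF5, the nearest promoters wholly outside that gene were those of PSTK and BUB3. They had -0.62 and -0.90 per the first of the authors' deposited tables and -1.39 and -1.25 per the second.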
